A study of Mus musculus with 27 samples.

Results

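The glucocorticoid receptor gene Nr3c1 and 9 genes known as its targets (Fkbp5, Klf9, Klf15, Tsc22d3, Sgk1, Zbtb16, Errfi1, Dusp1 and Cebpd) were followed in cultured mouse muscle cells. The genes were chosen as known receptor targets, by a rule that uses no measured value, though with earlier results of these data known. Of these 10 genes, 9 were found by Ensembl identifier among the 20446 genes of the count table, and Cebpd was not analysed here. Of the 9, 8 had enough reads to be tested and Zbtb16 did not. The cells were C2C12, an established line of mouse myoblasts, which fuse to form myotubes in low serum. All 9 groups shared 1 line and 1 treatment. Myoblasts were grown with 10% FBS, plated at 50000 cells per well, differentiated in 2% horse serum from about 90% confluence, and then pulsed with 50% horse serum for 2 h. The groups differed in the time after the pulse, from 12 h to 60 h in steps of 6 h, with 3 libraries of ribosome-depleted total RNA at each. The labels name no added glucocorticoid and no hormone measurement, and every group had the pulse.

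The glucocorticoid receptor is a nuclear receptor that waits in the cytoplasm, bound to the HSP90 chaperone and its partners. Cortisol or corticosterone releases it to the nucleus, where it binds response elements as a pair and raises or lowers transcription. Its targets include its own inhibitor FKBP51, and in muscle it is known for turning on genes of protein breakdown and amino acid use. Glucocorticoids can also reset circadian clocks in cultured cells, and serum is itself a source of steroid hormones and growth factors. Several of the targets, such as Sgk1, Dusp1 and Errfi1, are also known to respond to growth factors.

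Depth ran from 15.2 to 26.6 M counted reads over the 27 libraries, with a median of 20.9 M, and 12687 genes were tested. No pair of libraries from the same time looked like 1 library deposited again (chi-square of at least 5.81 per degree of freedom). The labels do not say whether they are separate cultures, so a p-value here reflects only the library-to-library spread, which may be technical. Muscle markers were abundant: the 15 myotube markers on a list summed to 19515 to 23068 CPM, the usual depth-scaled count (here by TMM-adjusted library size). The 10 adipocyte markers summed to 33.7 to 46.4 CPM, with no read for Cidec. The 12 immune and endothelial markers summed to 2.56 to 4.04 CPM, with no read for the T cell gene Cd3e. In bulk RNA of this kind, fewer cells of a type and less RNA per cell cannot be told apart.

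In mm10, by GENCODE M21, Fkbp5 lies at chr17:28399094-28517527 and Dusp1 at chr17:26505590-26562128, both on the minus strand. Klf9 is at chr19:23141226-23168134, Klf15 at chr6:90462576-90475238, Sgk1 at chr10:21882184-21999903 and Errfi1 at chr4:150853919-150868892, all on the plus strand. Tsc22d3 is at chrX:140539528-140600659 and Zbtb16 at chr9:48654297-48836222, both on the minus strand. Promoter stretches show what sequence lies beside these genes. RefSeq (GRCm38.p6) gave 15 promoter windows for 7 of the 10 genes, and the 250 bases before each transcript start were searched on both strands. The full palindromic glucocorticoid response element, spelled AGAACA, any 3 bases, then TGTTCT, was in 1 of the 15 windows, against 3 of all 32851 promoter windows (0.00913%). That window belongs to Sgk1, is at chr10:21993640-21993889 on the plus strand, and lies inside the gene without touching an annotated exon. The element runs from 189 to 175 bases before the start, and another TGTTCT overlaps an E-box (CACGTG, the letters that clock activators bind) farther upstream. It is printed first below, 5′ to 3′ with all matches in capitals. The Fkbp5 stretch (chr17:28486150-28486399, minus strand) follows because that gene is a classical target whose window holds an E-box and no response element. The Klf15 stretch (chr6:90462326-90462575, plus strand) follows because it holds 2 E-boxes.
Sgk1: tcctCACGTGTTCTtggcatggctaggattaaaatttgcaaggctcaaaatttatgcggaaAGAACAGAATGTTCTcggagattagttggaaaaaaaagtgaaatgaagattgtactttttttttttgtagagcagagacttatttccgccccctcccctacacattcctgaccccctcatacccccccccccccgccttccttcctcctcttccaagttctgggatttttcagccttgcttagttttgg
Fkbp5: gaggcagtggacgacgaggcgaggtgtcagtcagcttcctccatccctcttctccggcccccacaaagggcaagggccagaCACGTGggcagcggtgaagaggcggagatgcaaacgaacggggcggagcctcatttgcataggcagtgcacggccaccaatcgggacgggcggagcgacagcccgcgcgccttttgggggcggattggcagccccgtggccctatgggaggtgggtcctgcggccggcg
Klf15: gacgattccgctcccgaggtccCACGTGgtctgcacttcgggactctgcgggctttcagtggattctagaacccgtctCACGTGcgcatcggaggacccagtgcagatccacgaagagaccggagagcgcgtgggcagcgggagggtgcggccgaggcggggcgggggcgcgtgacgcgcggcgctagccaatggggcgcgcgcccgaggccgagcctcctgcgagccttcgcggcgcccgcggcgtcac

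Other motifs were searched in the same windows. One arm of the element (AGAACA, or TGTTCT on the other strand; each full element holds both) was in 4 of the 15 windows, 3 of Sgk1 and 1 of Tsc22d3, against 16.1% of all promoter windows. The E-box was in 4, those of Sgk1, Dusp1, Fkbp5 and Klf15, against 6.02% of all. The cAMP response element TGACGTCA was in 2, those of Dusp1 and Errfi1, against 1.55% of all. None of these letters were in the 1 window of Klf9, 2 of the 3 of Tsc22d3, 1 of the 2 of Errfi1 and 3 of the 6 of Sgk1. These matches describe the letters and are not measured binding sites, and elements farther away were not searched.

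Errfi1 and Tsc22d3 were the most abundant of the transcripts and Zbtb16 was almost absent. Scaled to exon length (CPM per kb of exon), the mean over 27 libraries was 39.3 for Errfi1, 27.2 for Tsc22d3, 15.9 for Nr3c1, 15.8 for Sgk1, 15.5 for Dusp1, 7.96 for Klf9, 4.60 for Fkbp5 and 0.135 for Klf15. Errfi1 was above Tsc22d3 within each of the 27 libraries, and Tsc22d3 was above Nr3c1 with no overlap of their ranges. Nr3c1, Sgk1 and Dusp1 could not be ordered, since Nr3c1 was above Sgk1 in 14 of 27 libraries and Sgk1 above Dusp1 in 16. Klf9 stood above Fkbp5 within each of the 27 libraries. The length-scaled level of the receptor was above 73.3% of the genes tested, while Klf15 was above 3.68%.

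**Figure D1:**
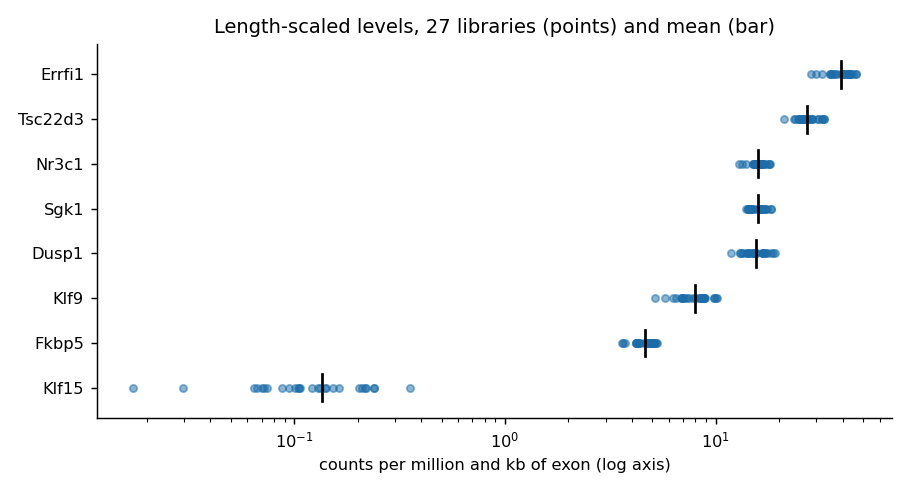
Length-scaled levels of the 8 tested genes on a log axis (CPM per kb of exon); points are the 27 libraries and the bar is their mean. Nr3c1, Sgk1 and Dusp1 overlap, with means of 15.5 to 15.9, and Klf15 lies far below at 0.135.

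Zbtb16, which encodes the zinc finger repressor PLZF, is strongly induced by glucocorticoids in many cell types. It had 1 read in all, in the third library of 48 h, and 0 in the other 26. A count of 0 allows up to 3 reads, which is 0.198 CPM in the shallowest library and 0.113 in the deepest (counting error only). No change over time could be measured at this depth.

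Over the whole course, 4 of the 8 tested genes changed, Errfi1, Klf9, Fkbp5 and Sgk1 (edgeR quasi-likelihood test, 8 contrasts between the 9 time points, threshold of 0.05 for p adjusted by Benjamini-Hochberg across the 12687 genes). Of all genes tested, 18.4% were called by this test, and the 8 genes are few. The steps were small: the highest time point mean was 1.64 times the lowest for Klf9, 1.48 times for Errfi1, 1.33 times for Fkbp5 and 1.19 times for Sgk1. With the replicate number left out of the model, Nr3c1, Tsc22d3, Dusp1 and Klf15 were not called (adjusted p = 0.165, 0.371, 0.334 and 0.0749). Without the libraries numbered 1 the count was 1 (Errfi1), and without those numbered 3 it was 2 (Klf9 and Errfi1), in fits with 18 libraries. With the replicate number in the model as a block, all 8 tested genes were called, where 5166 of all genes were instead of 2338. The call of these genes therefore depends on how the number is handled.

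**Figure D2:**
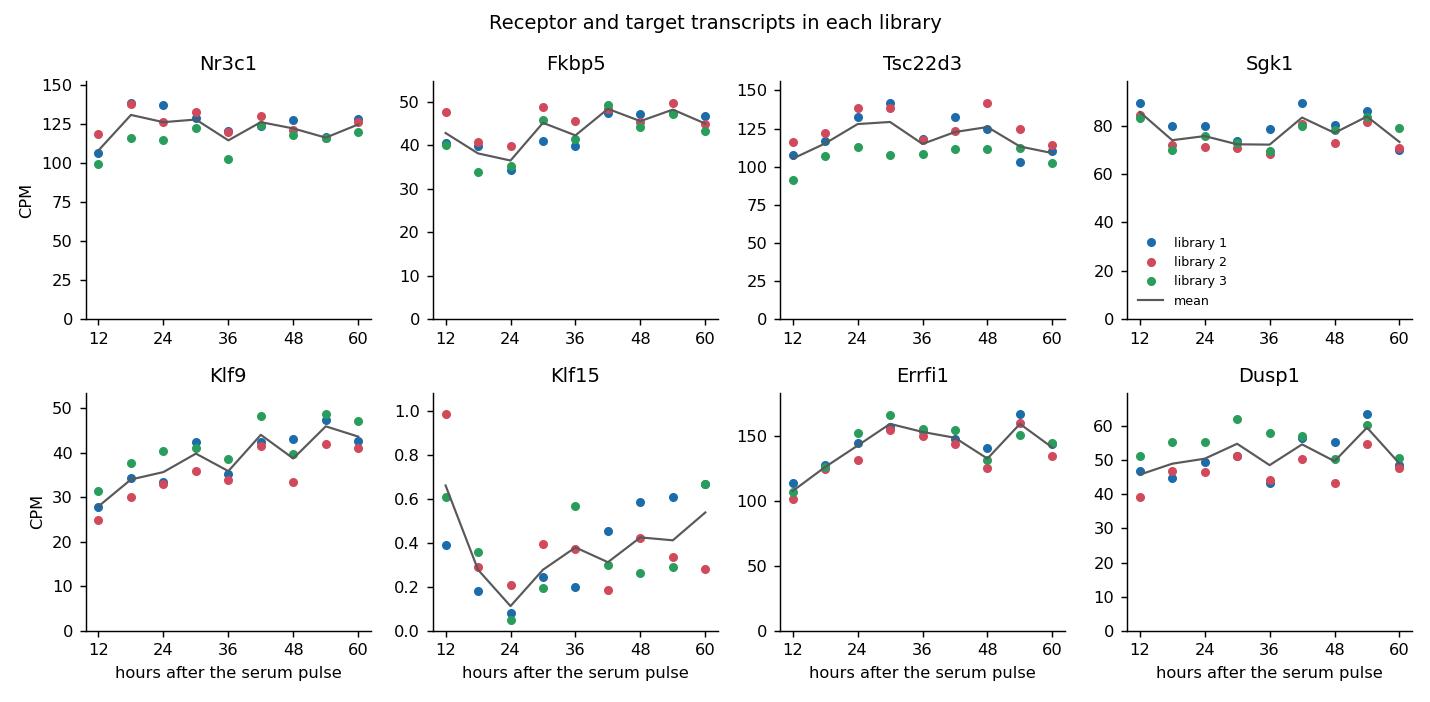
CPM of the 8 tested genes at each time point; points are single libraries coloured by their replicate number, the line is the mean and every axis starts at 0. Klf9 and Errfi1 climb from 12 h, Fkbp5 has its lowest mean at 24 h, Sgk1 has higher means at 12, 42 and 54 h than at the other times, and Klf15 rests on 1 to 20 reads per library.

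Nr3c1, the receptor, had its lowest mean, 108 CPM, at 12 h. Its change over the course was not called with the replicate number left out of the model (edgeR adjusted p = 0.165). Its 3 libraries held 107, 119 and 99.6 CPM at 12 h, 139, 138 and 116 at 18 h, and 128, 126 and 120.2 at 60 h. The means of the times between ran from 115 at 36 h to 128 at 30 h. At 18 h Nr3c1 was 1.21 times its 12 h level (log2 0.28 ± 0.08, SE; edgeR adjusted p = 0.0470), although the ranges of the 2 time points overlapped. This call is marginal, since it was lost in 22 of the 27 fits with 1 library left out (adjusted p up to 0.247) and in 4 other settings with all 27 libraries (another scaling, filters looser and stricter, and a threshold of 0.01). At 60 h the difference from 12 h was 0.21 ± 0.08 and was not called (adjusted p = 0.0876), while the 3 libraries of 60 h all lay above those of 12 h.

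Fkbp5 encodes FKBP51, the co-chaperone that holds the receptor in a state of low hormone affinity and is induced by it. The transcript dipped early and was higher in the later part of the course. Its 12 h libraries held 40.5, 47.7 and 40.1 CPM and its 24 h libraries 34.3, 39.7 and 35.3. Those of 42 h held 47.3, 48.4 and 49.3, and those of 60 h held 46.7, 44.8 and 43.3. All libraries of 54 h (47.3 to 49.7) and of 60 h lay above all of 24 h, while 12 h and 60 h overlapped. The lowest mean was that of 24 h, so a comparison with it is one picked from the values. The change over time had an adjusted p of 0.00634, and the linear trend was 0.26 ± 0.08 on the log2 scale over 48 h (adjusted p = 0.0252). From 12 h to 60 h the difference was only 0.07 ± 0.08 (adjusted p = 0.669). The libraries numbered 2 were highest at 6 of 9 time points. Without the libraries numbered 1 the trend was 0.20 and not called (adjusted p = 0.293), and without those numbered 3 it was 0.23 (0.129).

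Tsc22d3 encodes GILZ, a leucine zipper protein that carries part of the anti-inflammatory action of glucocorticoids. Its mean was 105 CPM at 12 h and 115 at 18 h, then 128 and 129 at 24 and 30 h. It was 115, 123 and 126 at 36, 42 and 48 h, and 113 and 109 at 54 and 60 h. The spread among libraries was as wide as these steps, with 142, 139 and 107 at 30 h and 108, 117 and 91.3 at 12 h. The library numbered 3 was the lowest at 8 of 9 time points. The tests that leave the replicate number out of the model did not call Tsc22d3, and at 60 h it differed from 12 h by 0.05 ± 0.11 on the log2 scale (adjusted p = 0.850, 95% interval -0.17 to 0.27).

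Sgk1 encodes a kinase related to AKT that regulates ion channels and responds to glucocorticoids, mineralocorticoids and serum. It is the gene with the full response element printed above. Its level was highest at 12 h, with 89.2, 84.4 and 83.2 CPM, lower at 18 h (80.0, 72.0 and 69.9), up again at 42 h (mean 83.3) and 54 h (83.7), and 69.8, 70.9 and 79.0 at 60 h. No library of 18 h or 60 h reached those of 12 h. Sgk1 fell by 0.23 ± 0.07 on the log2 scale from 12 h to 60 h (edgeR adjusted p = 0.0325), or 0.855 times, and this call was lost on leaving out library 1 or 2 of 12 h or library 1 or 2 of 60 h (adjusted p up to 0.1495). The step from 12 h to 18 h was -0.21 ± 0.07 and not called (adjusted p = 0.105). The change over the whole course was called at adjusted p = 0.0349, and this call was lost without the 12 h libraries (0.215) and in 19 of 27 fits with 1 library left out. The linear trend was near 0 (-0.01 ± 0.08), and the means went down, up and down again.

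Klf9 is a zinc finger transcription factor induced directly by the receptor, and it also feeds into the clock in other tissues. It had the largest rise of the set from 12 h to 60 h. Its libraries held 27.7, 24.8 and 31.3 CPM at 12 h, 47.2, 41.8 and 48.6 at 54 h, and 42.5, 41.1 and 47.1 at 60 h, with no overlap between 12 h and either late time point. Of these, 12 h and 54 h had the lowest and highest means of the course, a pair picked from the values. For 18, 24 and 30 h the means were 33.9, 35.6 and 39.8, and for 36, 42 and 48 h they were 35.8, 44.0 and 38.7. At 60 h Klf9 was 1.56 times its 12 h level (log2 0.64 ± 0.11, edgeR adjusted p = 2.35e-04), and the difference was 0.62, 0.73 and 0.59 among libraries numbered 1, 2 and 3. The trend over 48 h was 0.57 ± 0.10 (adjusted p = 1.23e-04). The change of Klf9 over the course (adjusted p = 8.67e-04) was not called without the libraries numbered 1 (0.202). The library numbered 2 was the lowest at 9 of 9 time points.

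Klf15, a factor that drives amino acid breakdown and is strongly induced by glucocorticoids in muscle, was barely expressed. It had 215 reads in 27 libraries, with 10, 20 and 14 at 12 h, 2, 4 and 1 at 24 h, and 14, 7 and 15 at 60 h. In CPM the means for 12, 18, 24 and 60 h were 0.662, 0.278, 0.112 and 0.539. The libraries of 24 h, the time with the lowest mean and so picked from the values, lay below those of 12 h and 60 h. The test over time did not call Klf15 (edgeR adjusted p = 0.0749), and DESeq2 did (0.0416). From 12 h to 18 h the difference was -1.22 ± 0.50 on the log2 scale (adjusted p = 0.193).

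Errfi1 encodes MIG6, a feedback inhibitor of the EGF receptor that glucocorticoids can also induce. It rose from 12 h and stayed above its 12 h level afterwards. The libraries held 114, 102 and 107 CPM at 12 h, 127, 125 and 126 at 18 h, 157, 155 and 165 at 30 h, and 143, 134 and 145 at 60 h. For 24, 36 and 42 h the means were 142, 153 and 148, and for 48 and 54 h they were 132 and 159. All libraries of 18 h and of 60 h were above all of 12 h. Errfi1 was 1.17 times its 12 h level at 18 h (log2 0.23 ± 0.06, edgeR adjusted p = 0.0327) and 1.31 times at 60 h (0.39 ± 0.06, adjusted p = 7.24e-05). The 18 h call was lost in 5 of the 6 fits that left out a library of 12 or 18 h, all but that without library 1 of 12 h (adjusted p up to 0.205). The change over the course had an adjusted p of 3.55e-06, the smallest of the set. Its linear trend of 0.26 ± 0.09 missed the threshold in edgeR (adjusted p = 0.0517) and passed in DESeq2 (0.0338) and limma-voom (0.0424).

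Dusp1, a phosphatase that switches off p38 and JNK kinases and is induced by both glucocorticoids and stress, was not called by the tests that leave the replicate number out of the model. It held 46.7, 39.2 and 51.3 CPM at 12 h, 63.4, 54.8 and 60.4 at 54 h, and 48.6, 47.7 and 50.8 at 60 h. The libraries of 54 h were above those of 12 h, but these are the times with the highest and lowest means, a pair picked from the values. Those of 12 h and 60 h overlapped (log2 difference 0.10 ± 0.12, adjusted p = 0.687, 95% interval -0.14 to 0.34). In the annotation Dusp1 overlaps Ergic1 on the other strand, and Errfi1 and Fkbp5 each overlap an antisense gene. The library kit keeps strand, but whether the counting used it is not given in the sources used here, so without strand those reads cannot be told apart.

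Between the 2 ends of the course, 2 of the 8 tested genes rose (Klf9 and Errfi1) and 1 fell (Sgk1). Of all genes tested, 16.0% were called, 9.48% higher and 6.54% lower at 60 h than at 12 h. The median difference of the 8 genes was 0.09 on the log2 scale, against -0.01 for all genes tested. In the step from 12 h to 18 h, 2 rose (Nr3c1 and Errfi1) and 0 fell, where 5.08% of all genes were called, 2.78% higher and 2.30% lower. Of the 8 genes 5 had an unadjusted p under 0.05 in that step, as had 1801 of all 12687, and DESeq2 and limma-voom also called 2 higher and 0 lower. Proliferation markers moved in the same step: 9 of 10 were higher at 18 h, and their summed level went from 826 to 916 CPM at 12 h to 1122 to 1507 at 18 h and 1031 to 1086 at 60 h. The myotube marker sum stayed at 20248 to 23068 CPM in the libraries of 12 and 18 h. The part of dividing cells in the step was not tested.

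**Figure D3:**
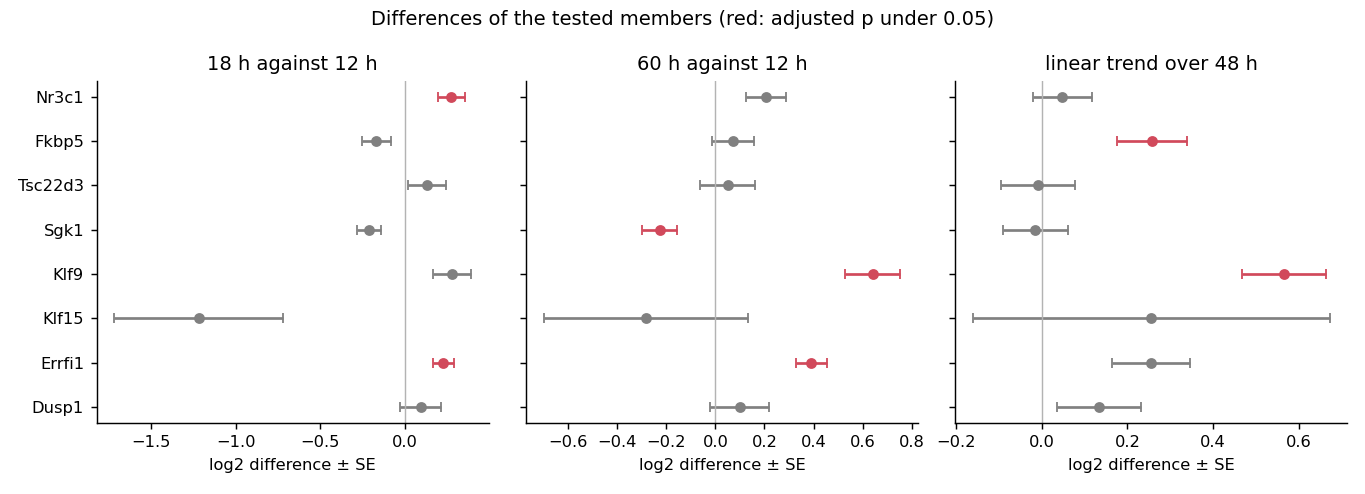
Log2 differences of the 8 tested genes ± SE for 18 h against 12 h, 60 h against 12 h, and the linear trend over 48 h, each panel with its own axis; red marks an adjusted p under 0.05. Klf9 is positive in all 3 panels and called in 2, and Klf15 has the widest error.

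A linear trend was called for 2 of the 8 genes, Klf9 and Fkbp5, both up, where 19.4% of all genes were called, 10.7% up and 8.69% down. A 24 h rhythm was called for 0 of the 8 genes in edgeR, and for 0.0552% of all genes. Of the 8, 2 had an unadjusted p under 0.05, as had 570 of all 12687 genes, and DESeq2 and limma-voom also called 0. Tsc22d3 had a fitted peak-to-trough log2 swing of 0.22 ± 0.07 with its peak 0.510 h into the cycle counted from the pulse (unadjusted p = 0.0206, adjusted p = 0.922). The swing was 0.17 ± 0.09 for Errfi1, 0.15 ± 0.09 for Dusp1, 0.14 ± 0.06 for Nr3c1, 0.11 ± 0.08 for Klf9, 0.09 ± 0.07 for Fkbp5 and 0.01 ± 0.07 for Sgk1. Leaving out Klf15, the highest upper bound of the 95% intervals was 0.36, that of Tsc22d3, followed by 0.34 for Errfi1 and 0.32 for Dusp1. These intervals are symmetric about the fitted swing and only rough, since a swing cannot be below 0. The lower bound was -0.126 for Sgk1, and 0.0753 for Tsc22d3 although its rhythm was not called. The upper bounds therefore set no firm limit on a rhythm. Klf15 had a fitted swing of 1.11 ± 0.39 (unadjusted p = 0.0208, adjusted p = 0.922) on its few reads.

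At 24, 36 and 48 h the means of Klf9, Dusp1 and Fkbp5 each lay below the average of the time points before and after. Nr3c1, Sgk1 and Errfi1 did so at 2 of these 3 times, and Klf15 and Tsc22d3 at 1. Those of Klf9, Dusp1 and Errfi1 were above that average at all 4 of 18, 30, 42 and 54 h. Nr3c1 and Fkbp5 were above it at 3, Tsc22d3 and Sgk1 at 2 and Klf15 at 1. Both comparisons use the same means, and they were not counted over all genes. Tested as an alternation, 12, 24, 36, 48 and 60 h against the rest, the log2 difference was -0.17 ± 0.05 for Klf9 (edgeR adjusted p = 0.194), -0.15 ± 0.06 for Dusp1 (0.296) and -0.12 ± 0.05 for Errfi1 (0.433). Thus, with the replicate number left out of the model, 0 of the 8 genes were called, where 0.772% of all genes were (0.229% higher and 0.544% lower). With the number in the model as a block, Klf9 and Dusp1 were called lower, where 269 of all genes were instead of 69. In the model without the number, 3 of the 8 had an unadjusted p under 0.05, as had 1203 of all 12687 genes, and DESeq2 and limma-voom called 0.

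Libraries with the same replicate number tended to lie on the same side of their time point mean. The library numbered 3 was the lowest for Nr3c1 at 8 of 9 time points and for Tsc22d3 at 8, and the highest for Klf9 and Dusp1 at 7 each. The library numbered 2 was the lowest for Klf9 at 9, Errfi1 at 8 and Dusp1 at 6. The library numbered 1 was the highest for Sgk1 at 8. On average library 3 lay 0.13 log2 units under the time point mean for Tsc22d3 and 0.12 above it for Dusp1. What the numbers stand for is not stated.

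Among the genes themselves, Klf9, Errfi1 and Dusp1 varied together, as did Nr3c1 and Tsc22d3. Over the 27 libraries, Pearson's r of log2 CPM was 0.75 between Klf9 and Errfi1, 0.74 between Klf9 and Dusp1, 0.62 between Errfi1 and Dusp1, and 0.62 between Nr3c1 and Tsc22d3. Between Nr3c1 and Fkbp5 it was 0.07, and between Nr3c1 and Klf15 -0.36. These are descriptions, since libraries share time points and replicate numbers. The genes most like each changed gene among 11532 tested genes with a mean of at least 1 CPM, predicted genes and pseudogenes left out, were found the same way over 27 libraries. Nav3 (r = 0.94), Rai14 (0.92) and Thbs1 (0.92), the gene of the matrix protein thrombospondin, were most like Klf9. Mmp14 (0.89), a membrane metalloproteinase, Nid2 (0.89), a basement membrane protein, and Tmem119 (0.88) were most like Errfi1. Oaf (0.85), Tmod3 (0.83) and Rrp8 (0.81) were most like Fkbp5, and Mtap (0.74), Bzw2 (0.74) and Tarbp1 (0.73) most like Sgk1.

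The wider pathway was read from gene lists, beginning with the enzymes and pumps that set how much steroid a cell sees. The lists here and below were written with earlier results of these data known. Their called shares, set beside that of all genes, are therefore descriptions and not a test of a list. Hsd11b1, which turns inactive into active glucocorticoid inside cells, rose, while Abcb1a and Abcb1b, which encode P-glycoprotein pumps that export steroids and drugs, fell. Hsd11b1 held 12.1, 13.9 and 10.3 CPM at 12 h, 23.2, 25.6 and 25.3 at 18 h, 44.0, 44.7 and 41.9 at 24 h and 54.4, 49.6 and 44.5 at 60 h. The libraries of 12 h, 18 h and 24 h did not overlap, and from 24 h to 60 h the means stayed between 42.5 and 49.5. At 60 h it was higher than at 12 h by 2.03 ± 0.10 on the log2 scale (edgeR adjusted p = 8.36e-13). Abcb1a went from 4.02, 5.57 and 4.66 CPM at 12 h to 0.330, 0.466 and 0.526 at 24 h and 0.668, 1.00 and 0.846 at 60 h, a change of -2.48 ± 0.35 from 12 h to 60 h (adjusted p = 8.37e-06). Abcb1b fell mostly in the first step, and its means for 12, 18 and 60 h were 28.8 ± 4.25, 14.7 ± 2.29 and 14.3 ± 0.300 CPM (SD, n = 3) (log2 -1.004 ± 0.11, adjusted p = 7.17e-07). Abcb1a and Abcb1b are close copies, and reads common to both make the split between them uncertain. Of the 13 genes on this list 8 were tested and 4 changed over time, or 50% against 18.4% of all genes (1 gene without the 12 h libraries). The fourth was Esr1, an estrogen receptor (0.39 ± 0.12 at 60 h, adjusted p = 0.0257). The 60 h call of Esr1 was lost without library 1 or 2 of 12 h or library 1 or 3 of 60 h (adjusted p up to 0.158), and its call over time without library 2 of 12 h (0.0616). Hsd11b2, which inactivates glucocorticoid, was not tested, with 131 reads in all.

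**Figure D4:**
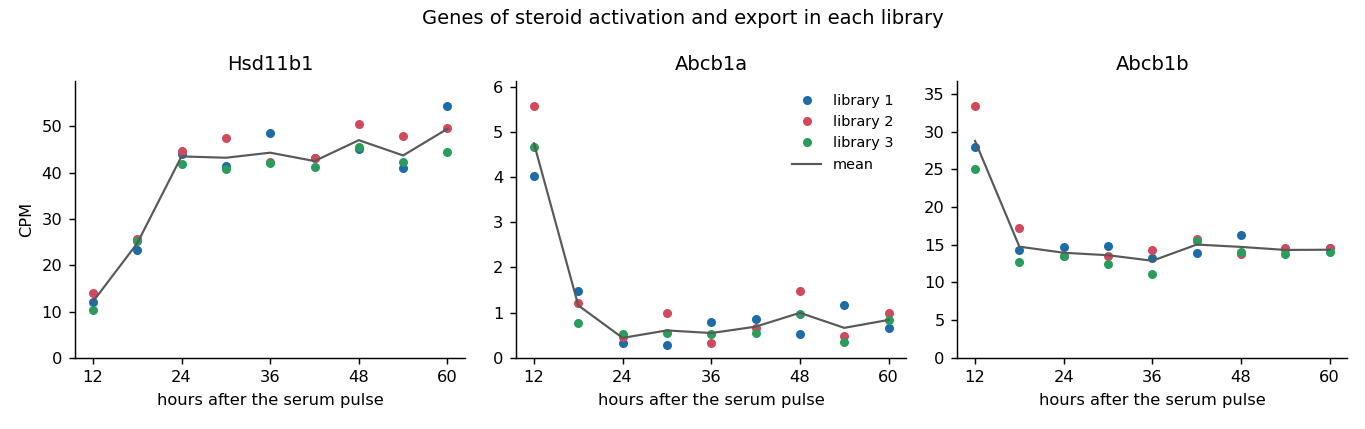
CPM of Hsd11b1, Abcb1a and Abcb1b at each time point; points are single libraries by replicate number and the line is the mean. Hsd11b1 climbs from a mean of 12.1 at 12 h to 43.5 at 24 h and stays there, and both pumps fall between 12 and 24 h.

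Few genes that hold the receptor or work with it passed the test. Of 14 receptor chaperones 1 changed over time, or 7.14% against 18.4% of all genes. It was Hsp90ab1, the constitutive HSP90, with 2972 ± 85.1 CPM at 12 h and 2570.1 ± 149 at 60 h (SD, n = 3; edgeR adjusted p = 0.0323 over time). Its call was lost without the 12 h libraries (adjusted p = 0.557) and without library 1 or 2 of 12 h alone. At 60 h against 12 h, 0 of the 14 chaperones were called, but every estimate was below 0, where 53.1% of all genes had one below 0. The median of the chaperones was -0.13 on the log2 scale. Their summed level, to which Hsp90ab1 gave the most, was 5296 to 5951 CPM at 12 h and 4811 to 5195 at 60 h. Fkbp4, which encodes FKBP52, the counterpart of FKBP51, had means of 191 and 166 CPM at 12 and 60 h and was not called (adjusted p = 0.220), nor were Cdc37 (0.246) and Ppid (0.399). Of 14 coregulators 0 changed in edgeR (0 at an unadjusted p under 0.05, and 0 in limma-voom and DESeq2). Among them, the deacetylase genes Sirt1 and Hdac2 and the Mediator subunit gene Med14 had means of 31.7, 181 and 58.9 CPM. Their log2 differences from 12 h to 60 h were -0.06 ± 0.10, 0.03 ± 0.10 and 0.25 ± 0.30 (SE). The libraries of Med14 at 12 h held 47.5, 32.5 and 64.5 CPM, so a change in a gene spread like this could have been missed.

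Among 30 other known targets, 24 were tested and 13 changed over time, or 54.2% against 18.4% of all genes, and 8 changed without the 12 h libraries. This list too was written with earlier results of these data known, so the share is a description. At 60 h, 7 were higher and 2 lower than at 12 h, with a median of 0.12 on the log2 scale against -0.01 for all genes. They did not move one way. Tgm2, a transglutaminase, went from 43.2 ± 1.06 CPM at 12 h to 74.2 ± 2.35 at 60 h (0.78 ± 0.07, edgeR adjusted p = 7.75e-09) with its highest mean, 87.1, at 36 h. Angptl4, an inhibitor of lipoprotein lipase, went from 74.5 ± 3.19 to 40.3 ± 3.83 CPM (-0.89 ± 0.09, adjusted p = 1.07e-07). Mt2, a metallothionein, went from 17.5 ± 1.98 CPM at 12 h to 6.56 ± 1.78 at 60 h with its lowest mean, 3.73, at 24 h (-1.41 ± 0.22, adjusted p = 5.48e-05). Glul, glutamine synthetase, peaked at 24 h with 120.4 CPM against 88.9 at 12 h and 85.6 at 60 h (adjusted p = 5.12e-06 over time). Lcn2 had no read, and the liver genes Tat and Pck1 had 3 and 4 in all.

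Of 14 genes on a list of muscle atrophy and amino acid use, 13 were tested and 4 changed over time, or 30.8% against 18.4% of all genes. Whether each of them responds to glucocorticoids was not tested here. At 60 h, 2 were higher and 1 lower than at 12 h, with a median of 0.05 on the log2 scale. Fbxo40, a muscle ubiquitin ligase subunit, went from 9.86 ± 0.968 CPM at 12 h to 20.1 ± 0.924 at 60 h (1.03 ± 0.09, edgeR adjusted p = 1.90e-08). Bnip3, which acts in mitophagy, was 31.8 ± 4.14 CPM at 60 h against 21.2 ± 2.93 at 12 h (0.58 ± 0.12, adjusted p = 0.00133). This was not a steady rise, since its means went up and down by turns. They were 28.05, 31.2 and 27.2 CPM at 24, 36 and 48 h, and 19.3, 21.3, 19.98 and 19.1 at 18, 30, 42 and 54 h. The linear trend of Bnip3 was not called (edgeR adjusted p = 0.273). Tested as an alternation, 1 gene of this list was called higher and 1 lower, where 0.229% and 0.544% of all genes were. Foxo4, a forkhead factor, was 35.9 ± 0.771 CPM at 60 h against 40.8 ± 2.29 at 12 h (-0.18 ± 0.06, adjusted p = 0.0468), a call lost in 17 of 27 fits with 1 library left out (adjusted p up to 0.183). Its call over time was lost in 3. Sesn1 peaked at 24 h, with 85.8 CPM (adjusted p = 0.00505 over time). The other tested genes of this list were not called over time, among them Fbxo32 (edgeR adjusted p = 0.910), Foxo3 (0.701) and Trim63 (0.282). The myostatin gene Mstn had 9 reads in all and was not tested.

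The immediate early genes, which serum and growth factors switch on within minutes, made a list of 25 tested genes. Of these, 8 changed over time (5 without the 12 h libraries), which is 32% against 18.4% of all genes. At 60 h, 6 were higher than at 12 h and 0 lower, where 9.48% and 6.54% of all genes were, and the list's median was 0.15 on the log2 scale against -0.01 for all genes. Ier3 went from 26.3 ± 1.45 to 41.2 ± 1.54 CPM (0.65 ± 0.09, edgeR adjusted p = 1.67e-05). Egr2 went from 20.9 ± 1.60 to 44.0 ± 4.74 (1.07 ± 0.14, adjusted p = 8.74e-06). Dusp6, a phosphatase of ERK, rose by 0.32 ± 0.10 (adjusted p = 0.0238), which was lost without library 1 or 2 of 12 h or library 3 of 60 h (adjusted p up to 0.1815). Srf, the serum response factor, rose by 0.48 ± 0.14 (adjusted p = 0.0201), which was lost without library 1 or 2 of 12 h or library 1 or 3 of 60 h (up to 0.117).

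**Figure D5:**
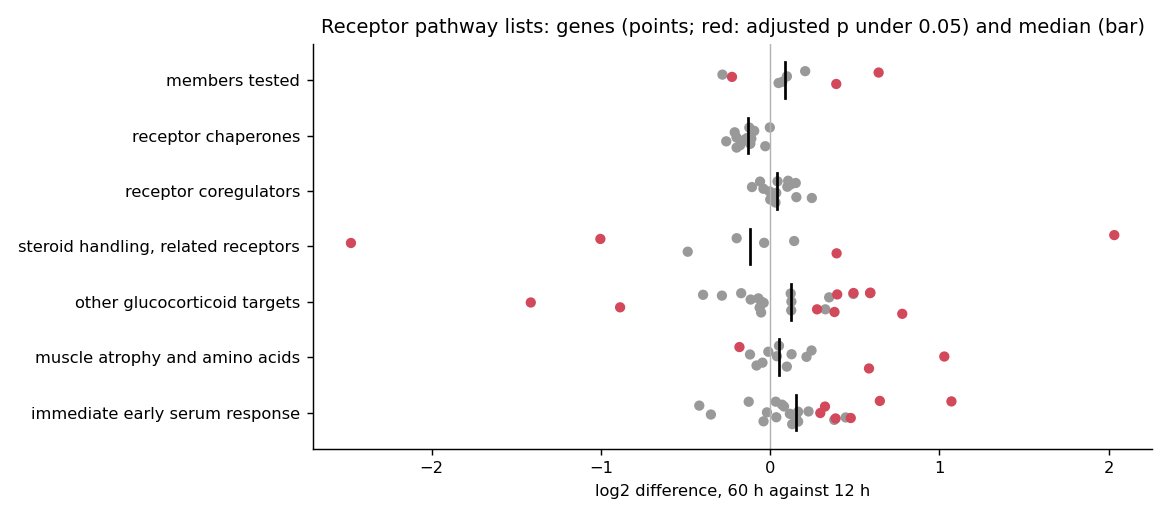
Log2 difference between 60 h and 12 h for the 8 tested members and the tested genes of 6 pathway lists; each point is a gene, red marks an adjusted p under 0.05 and the bar is the list's median. Chaperones all lie below 0 (median -0.13) and coregulators on both sides of it (median 0.04), while steroid handling spans from -2.48 for Abcb1a to 2.03 for Hsd11b1.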

How the data were processed

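The members, gene lists, tests and alternatives were chosen with earlier results of these data known. The authors deposited 1 table of raw counts per Ensembl gene, not normalized, with 0 columns left unmapped. Per the submitters' processing notes, Trim Galore 0.4.0, cutadapt 1.9.1, featureCounts and the mm10 genome were used; no source used here gives the aligner, the annotation or how featureCounts was set. Names, positions and exon lengths came from GENCODE M21 (20318 genes matched). Libraries were grouped by the time in their titles.

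Genes passed filterByExpr (minimum count 10). Tests used edgeR 4.0.16 (R 4.3.3) with TMM scaling (factors 0.979 to 1.03) over all 27 libraries, in a factor fit and in a fit with a line and a 24 h wave. Log2 CPM used a prior count of 2, and SEs are Wald values from the quasi-likelihood fit. The scripts were tested on simulated counts with known fold changes. Alternatives used DESeq2 1.42.0, limma 3.58.1, other filters, scalings, periods and left-out libraries; leaving out all libraries of 1 number was added after seeing the data. From each list the 4 tested genes with the smallest p over time were named, and the 3 genes most like each changed member. Some genes that this rule or the marker lists hold are not reported here.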

Additional observations from a re-analysis of the deposited data

How the results depend on the processing

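The number of called members changed with how the replicate number was handled. With it as a replicate block, all 8 tested genes were called for change over time instead of 4 (all genes 5166 instead of 2338), 1 instead of 0 was lower at 18 h, and 2 instead of 0 (Klf9 and Dusp1) were lower in the alternation. Same-numbered libraries of different times had a median correlation of 0.331 in their deviations (lowest -0.0558, 91 of 108 pairs above 0.1), and 26 of 27 libraries were closest to their own number. Nothing states that the numbers mark a shared culture, so the block was not the main design. Without the libraries numbered 1, 2 or 3 (chosen after seeing the data), change over time gave 1, 3 and 2 members, rises at 18 h gave 0, 0 and 1, the fall at 60 h gave 0 each time, and rising trends gave 1, 2 and 1. Rises at 18 h, 2 in the main test, were 1 with DESeq2 size factors, 0 without a filter, 1 at a mean of at least 1 CPM, 0 with the 6 libraries alone and 0 at adjusted p under 0.01. The fall of Sgk1 at 60 h was lost (0) with the 6 libraries alone (adjusted p = 0.0797) and at adjusted p under 0.01, where rising trends numbered 1.

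With 1 library left out, members called for change over time numbered 3 to 4, rises at 60 h 2 to 3, falls 0 to 1, rises at 18 h 0 to 2, and rising trends 2 to 3; rhythm, alternation and falls at 18 h stayed at 0. Of the named list genes, the linear trend turned sign without the 12 h libraries for Abcb1a (0.38), Abcb1b (0.13), Mt2 (0.17) and Cenpf (-0.004024), none then called.

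Counts over all genes moved by more than 1.5 times as follows. Change over time (2338) gave 1189 without 12 h, 1531 at adjusted p under 0.01, and 759, 1500 and 1188 without the libraries numbered 1, 2 and 3. Genes higher at 18 h (353) were 868 with the block, 66 with the 6 libraries alone and 98, 212 and 198 without those numbers, and genes lower (292) were 779, 60, 89, 150 and 140. At 60 h, 1203 higher and 830 lower became 2032 and 1716 with the block, 606 and 310 without number 1, and 756 and 475 without number 3. Rising and falling trends (1355 and 1103) were 692 and 489 without 12 h and 758 and 433 without number 1, and falling trends 1861 with the block. Rhythmic genes (7) were 11 in DESeq2, 0 at a period of 20 h, and 2 and 3 without numbers 1 and 3. Alternation, 29 higher and 69 lower, gave 113 and 269 with the block, 57 and 109 in DESeq2, 0 and 1, 4 and 23, and 1 and 8 without numbers 1, 2 and 3, and 78 and 59 higher without 12 h and with a quadratic term. At adjusted p under 0.01 the calls were 795 and 448 at 60 h, 211 and 154 at 18 h, 883 and 559 for the trend, and 8 and 29 for the alternation. Klf15 and Zbtb16 are limited by depth.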

Other observations

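Of 15 myotube markers 3 changed over time, a share of 20% that is near the 18.4% of all genes. Myog, the myogenic factor that starts fusion, went from 744 ± 11.4 CPM at 12 h to 420.4 ± 30.1 at 60 h (SD, n = 3; log2 -0.82 ± 0.07, SE; edgeR adjusted p = 2.58e-08). Myh7, the slow myosin heavy chain, changed by -0.40 ± 0.10 (adjusted p = 0.00634), and Myh3, the embryonic one, had a trend of 0.30 ± 0.08 over 48 h (adjusted p = 0.00990), while its call over time was lost in 17 of 27 fits with 1 library left out. Of 8 tested myoblast and reserve cell markers 3 changed over time, or 37.5%. They did not move one way, since at 60 h 1 was higher and 1 lower than at 12 h. Cd34, a marker of quiescent reserve cells, went from 62.6 ± 5.20 to 39.7 ± 1.27 CPM (-0.66 ± 0.09, adjusted p = 1.22e-05). Spry1 went from 79.3 ± 3.37 to 93.1 ± 2.63 CPM (0.23 ± 0.06, adjusted p = 0.0119), a call lost in 2 of 27 fits with 1 library left out. Myod1 was not called at 60 h (adjusted p = 0.687). Of 10 proliferation markers 9 changed over time, or 90% against 18.4% of all genes, and 4 did without the 12 h libraries. The marker lists too were written with earlier results of these data known. Cenpf, a kinetochore protein, went from 67.2 ± 1.75 CPM at 12 h to 112 ± 5.10 at 60 h with its highest mean, 141, at 18 h (0.74 ± 0.08 at 60 h against 12 h, adjusted p = 2.19e-07).

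Of the 8 tested members, Sgk1 (85.6 CPM) and Klf15 (0.662) had their highest mean at 12 h, the earliest time sampled. Nr3c1 (108), Klf9 (27.9), Tsc22d3 (105), Errfi1 (107) and Dusp1 (45.8) had their lowest mean there, and Fkbp5 had neither. This was looked for after the values were seen, and levels before 12 h were not analysed here.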
